A study of Mus musculus with 3 samples.

Results

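Carbonic anhydrases, the enzymes that interconvert carbon dioxide and bicarbonate, were followed in 3T3-L1 adipocytes on arrays labelled day 2, day 8 and day 20 of adipogenic differentiation. The 8 genes described are Car2, Car3, Car4, Car5b, Car8, Car9, Car12 and Car13. They were taken by name, with earlier results of these data known. Their probes were found by matching the RefSeq accession printed for each array probe to a mouse gene symbol. This gave 10 of 39429 non-control probes and 8 of 20144 named genes, with 2 probes each for Car4 and Car8 and 1 for each of the other members. The family holds 16 genes on this array, and the other 8 are described beside the members.

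3T3-L1 is an established mouse preadipocyte line that stores fat after hormonal induction, and the study asked how gene expression changes as such adipocytes enlarge. The labels describe day 2 as just after differentiation and day 20 as a long culture, and name no genotype, drug or other treatment for any group. Total RNA of each day was hybridised to 1 Agilent 1-colour array, so there are no replicates, no difference could be tested, and every comparison is between 2 arrays. The labels do not say how many cultures each RNA came from, and in RNA from a whole culture a change in the number of cells of a kind cannot be told apart from a change in RNA per cell. The labels give the days both as counted from differentiation and as counted from its induction, so how far differentiation had gone on day 2 is not settled by them. Of 13 adipocyte markers, 12 were well above background on day 2 and 13 on days 8 and 20, and only Lep, encoding leptin, was not on day 2. Adipoq, the hormone adiponectin, was higher by 3.83 log2 units on day 8 than on day 2 (technical SD 0.06) and Pparg, the receptor that drives differentiation, by 1.71 (0.06). Plin1, which coats lipid droplets, was at 0.80 (0.06) and Fabp4, a fatty acid carrier, at -0.05 (0.06).

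Markers of other cells that such a culture could hold also differed between the arrays. Of 8 preadipocyte and fibroblast markers 7, 8 and 8 were detected over the 3 days, with a summed scaled intensity of 195, 93.6 and 209 on the linear scale, where 1 is the 75th percentile. Such a sum follows mainly the brightest probes, here S100a4 on day 2, at 6.99 on the log2 scale. On day 8 against day 2, Pdgfrb was at 2.53, S100a4 at -2.07 and Ly6a at -1.01, and Cd34, undetected on day 2, was at least 5.63-fold higher. On day 20 against day 8 Ly6a was at 2.58, Thy1 at 1.81, Dlk1 at 1.47 and Cd34 at -1.17, with a median of 0.87. Of 6 macrophage markers with a probe, Adgre1, Ptprc and Mrc1 were undetected on all days, Cd14 was at 2.96 on day 8 against day 2, Itgam at -1.13 on day 20 against day 8, and the sum was 9.01, 11.5 and 6.20. The part of such cells in the values of the carbonic anhydrases was not tested.

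Carbonic anhydrases bind zinc and hydrate carbon dioxide to bicarbonate and a proton, and the isoforms differ mainly in where they work. Cytosolic and mitochondrial forms supply bicarbonate inside the cell, where carboxylases use it in fatty acid synthesis and related pathways. Membrane forms act at the cell surface, where they help to move acid out, and Car9 is a classical target of the hypoxia-inducible factor HIF. In fat tissue Car3 is known as one of the abundant cytosolic proteins of mature adipocytes.

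Levels are log2 processed intensity minus the 75th percentile of the array's non-control probes, so 0 is the brightness of that percentile. A spot counted as detected where the scanner software marked it well above background. The lowest such signal lay at -5.70, -5.76 and -5.91 on days 2, 8 and 20. Levels of different probes depend on the probe, so those of different members are not set against each other. The summed intensity of a list adds such levels, undetected probes included, and follows mainly its brightest probes. The technical SD was taken from probes with 10 spots per array and covers the spread between spots, not between cultures. A gene detected on both days was called 2-fold apart at a log2 difference of 1 or more. For a gene detected on 1 of the 2 days a bound is given, which sets the brighter value against the dim one, or against that array's lowest detected signal where this is higher, written as "at least N-fold".

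From day 2 to day 8, Car3 and Car9 passed from undetected to clearly detected, Car2 became detectable at a low level, and Car5b was lower. Car13 and Car4 were detected on all 3 days and stayed within 2-fold, except for Car13 on day 20 against day 2 when arrays were scaled on spike-in probes. Car12 was detected on day 20 alone, and Car8 on no day. Of the 3 members measured on both day 2 and day 8, 1 was at least 2-fold lower and 0 were higher, where 12.9% of all 12045 measured genes were lower and 13.8% higher. Another 3 members, of 3 detected on only 1 of these arrays, had a bound past 2-fold in favour of day 8, against 25.1% of the 1238 genes of that kind, and 0 had one in favour of day 2, against 10.9%. These 3 members are Car2, Car3 and Car9. Because the members were chosen with earlier results of these data known, the shares over all genes here and below give a scale only.

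**Figure D1:**
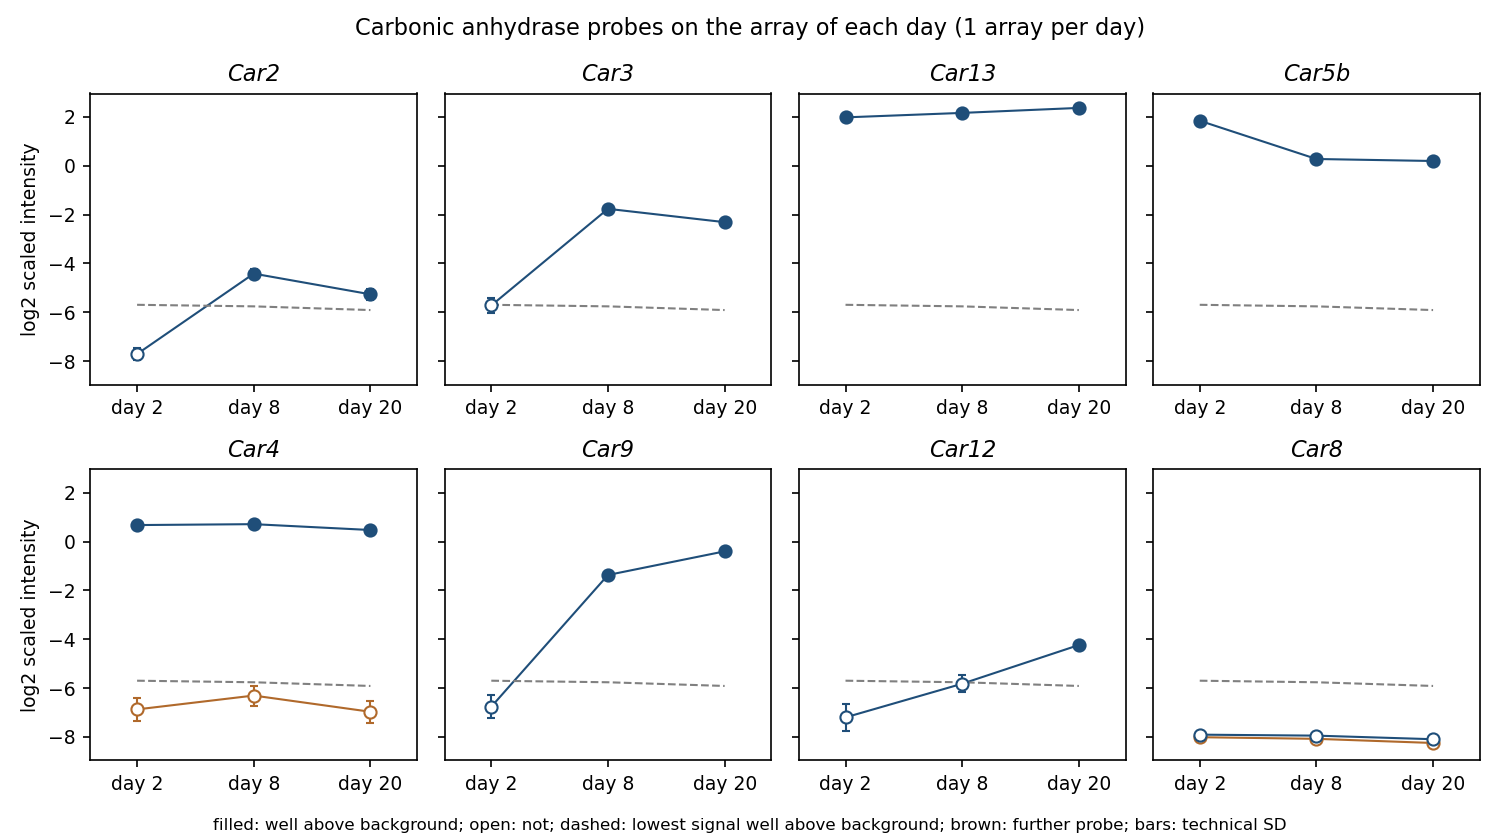
Level of each carbonic anhydrase probe on the array of each day (log2 processed intensity minus the array's 75th percentile, y axis; day, x axis). Filled points were well above background, open points were not, bars are technical SDs, the dashed line is the lowest signal well above background, and brown marks the further probes of Car4 and Car8. Car3, Car9 and Car2 cross the dashed line between day 2 and day 8, Car12 by day 20, and Car5b steps from 1.84 to 0.28.

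The cytosolic members took different courses. Car3, a cytosolic isoform of low catalytic activity known from muscle, liver and fat, lay at -5.72 on day 2, not well above background, at -1.76 on day 8 and at -2.31 on day 20. The day 2 array alone was low, and the other two were far above the detection line. Against day 2, Car3 was at least 15.3-fold higher on day 8. The bound for day 20 was at least 10.5-fold. On the log2 scale these bounds are 3.93 and 3.39, and with normexp background correction they were 1.58 and 1.02. Normexp here adds an offset of 50 to all spots, which draws the values of dim spots together. Of the genes with a bound from day 2 to day 8, 55 had a higher one. The day 2 spot lay just under the lowest detected signal, with a processed intensity of 12.5 against 12.8.

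Between day 8 and day 20, Car3 was lower by a log2 difference of -0.55 (technical SD 0.096), under 2-fold, a value that turned to 0.11 when the arrays were scaled on spike-in probes. Its unscaled intensity was 187 on both of these arrays, while the 75th percentile used for scaling was 636 on day 8 and 927 on day 20.

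Car2, the fast and widely expressed cytosolic isoform of red cells, kidney and osteoclasts, was at -7.71 on day 2, undetected, -4.42 on day 8 and -5.27 on day 20. Against day 2 its bound was at least 2.42-fold for day 8. For day 20 it was at least 1.35-fold (0.43 on the log2 scale), under the 2-fold line, but 1.13 with spike-in scaling and 2.45 without a filter on dim probes. The difference from day 8 to day 20 was -0.85 (technical SD 0.31), also under 2-fold. Its spots were dim throughout, with intensities of 3.16, 29.7 and 24.1 over the 3 days. With normexp background correction the day 8 bound was 0.50 on the log2 scale, under 2-fold. The Car2 intensities lie under the normexp offset of 50 on all 3 days, so this setting says little about a 2-fold difference.

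Car13, a further cytosolic isoform, stood at 1.98, 2.17 and 2.37 on days 2, 8 and 20. The order was day 2, day 8, day 20, and each step was larger than its technical SD but far under 2-fold, at 0.18 (SD 0.066) and 0.20 (SD 0.069). From day 2 to day 20 the difference was 0.39, and 1.08 with spike-in scaling, which is past 2-fold.

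In the mouse gene table used for naming (assembly GRCm38.p6), Car13, Car1, Car3 and Car2 follow each other on chromosome 3, with 2 pseudogenes and a lncRNA gene among them that no named probe measured. Car3 and Car2 are direct neighbours at one end. Along this stretch Car13 was detected on every day and steady, Car1, the abundant isoform of red cells, was dim with values of -4.79, -3.71 and -4.42, and Car3 and Car2 were detected only on days 8 and 20.

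Genes of tissues in which Car2 and Car3 are prominent were examined beside them. Of 8 skeletal muscle markers, 2 were detected on day 2 and 3 on days 8 and 20, and their summed scaled intensity was 0.219, 4.06 and 12.8. Most of that sum on days 8 and 20 was Mb, myoglobin, alone, at levels of 1.88 and 3.62 on the log2 scale. Ckm, Myh1, Myh4, Myod1 and Myog were undetected on all 3 days. Among the detected ones, Mb was at least 188-fold higher on day 8 than on day 2, and Acta1, skeletal actin, was higher by 3.64 (SD 0.295). The third, Tnnt3, a troponin of fast muscle, went the other way, at -0.80 (SD 0.143) on day 8 and -1.38 on day 20 against day 2. From day 8 to day 20 Mb was at 1.75, Acta1 at 0.58 and Tnnt3 at -0.57. Of 7 osteoclast markers 3, 3 and 4 were detected on the 3 days, and Calcr, Dcstamp and Mmp9 were undetected on all days, while Acp5, the tartrate-resistant phosphatase, was higher on day 8 by 7.10 (SD 0.223). The other measured osteoclast markers were not, with Ctsk at -0.86 and Oscar at -0.12, and the summed intensity of the list was 4.33, 7.02 and 7.42. The part of such cells in the Car2 and Car3 values was not tested.

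The mitochondrial member Car5b had its highest level at the start. Car5b, which supplies bicarbonate to enzymes of the mitochondrial matrix, lay at 1.84 on day 2, 0.28 on day 8 and 0.20 on day 20. Day 2 was high, and days 8 and 20 were close to each other. It was 2.96-fold lower on day 8 than on day 2 (log2 difference -1.57, technical SD 0.07), and 646 of the 12045 measured genes were lower by more. From day 8 to day 20 the difference was -0.08 (SD 0.078), about 1 technical SD, and 0.57 with spike-in scaling. Over the whole interval Car5b was 3.14-fold lower (-1.65), or -0.95 with spike-in scaling, which is under 2-fold. Car5a, the liver form of the mitochondrial enzyme, was undetected on all 3 days.

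Of the membrane members, Car4 differed least between days. Car4, held at the outer surface by a lipid anchor and known from capillary endothelium and kidney, was at 0.68, 0.72 and 0.48 by its brighter probe. Days 2 and 8 differed by 0.04 (technical SD 0.07), within the spot error. Day 20 lay below day 8 by -0.24 (SD 0.075) and below day 2 by -0.20 (SD 0.072), values that turned to 0.42 and 0.49 with spike-in scaling. The second Car4 probe, of the same RefSeq transcript, was undetected on all days, at -6.87, -6.30 and -6.97, so the probes disagree on whether the transcript was present. Of 6 endothelial markers, Cdh5 and Tek were undetected on all days, 2, 3 and 3 of the 6 were detected on days 2, 8 and 20, and their summed intensity was 4.66, 4.31 and 2.80. Their part in the Car4 values was not tested.

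Car9, a transmembrane isoform with an outward-facing active site, showed the largest bound of the members. Its level was -6.76 on day 2, undetected, -1.37 on day 8 and -0.40 on day 20, and the processed intensity was 6.10, 247 and 704. Each later array was brighter than the one before it. Against day 2, Car9 was at least 20.1-fold higher on day 8. The bound for day 20 was at least 39.4-fold. On the log2 scale these are 4.33 and 5.30, and with normexp they were 2.24 and 3.04. From day 2 to day 8, 45 genes had a higher bound. From day 8 to day 20 it was higher by 0.97 (technical SD 0.082), just under 2-fold, and 471 of 12321 measured genes were higher by more. That step passed 2-fold in 3 of 10 alternative settings, at 1.14 with cyclic loess, 1.62 with spike-in scaling and 1.03 with the percentile taken over detected probes.

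Car12, the other transmembrane isoform of this kind, also known as hypoxia-inducible in some cells, stayed near the detection limit. It was at -7.20 on day 2 and -5.82 on day 8, undetected on both, and at -4.24 on day 20, the single detected value. Intensities were 4.51, 11.3 and 49.2. It was at least 2.88-fold higher on day 20 than on day 8, the 1 member of 1 with a bound in that comparison, where 8.18% of 770 such genes had a bound past 2-fold upward and 8.57% downward. Against day 2 the day 20 bound was at least 2.75-fold. Epithelia express Car12, and of 6 epithelial markers 3, 3 and 1 were detected on the 3 days, with summed intensities of 0.577, 3.94 and 2.38. On day 8 against day 2 Krt18 was at 5.62 and Krt14 at -3.53, Krt19 was at least 3.35-fold lower, and Cdh1 and Krt8 were undetected on all days. On day 20 against day 8 Krt18 was at -0.72, Krt14 was at least 1.86-fold lower and Epcam at least 1.49-fold lower. Against day 2, Krt18 on day 20 was at 4.90. The part of such cells in the Car12 values was not tested. With normexp, which here adds an offset of 50 to all spots, the 2 Car12 bounds were 0.07 and 0.31 on the log2 scale. Its intensities lie under that offset on all 3 days.

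Car8, which has lost catalytic activity and is best known from Purkinje cells of the cerebellum, was undetected with both of its probes on all 3 days. Their levels ran from -8.25 to -7.91, well under the detection line, which sets a limit to what these arrays can show and does not show that the transcript was absent.

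Upstream sequences were available from RefSeq (GRCm38.p6) for 4 of the 8 members, Car4, Car5b, Car9 and Car12. HIF binds DNA at a short core, ACGTG or GCGTG, and in the human gene CA9 such an element lies directly ahead of the transcription start. The 250 bases ahead of the annotated start are shown for Car9 and Car12, which were brightest on day 20, and for Car5b, which was brightest on day 2, 5′ to 3′ on the gene's strand, with each core on either strand in capitals. Car9 is from chr4:43506776-43507025 (plus strand), Car12 from chr9:66713436-66713685 (plus strand) and Car5b from chrX:164028011-164028260 (minus strand).
Car9: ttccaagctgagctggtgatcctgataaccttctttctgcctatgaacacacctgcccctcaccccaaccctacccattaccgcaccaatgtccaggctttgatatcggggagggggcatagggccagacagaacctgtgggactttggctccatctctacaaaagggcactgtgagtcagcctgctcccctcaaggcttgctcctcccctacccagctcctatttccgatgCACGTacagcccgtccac
Car12: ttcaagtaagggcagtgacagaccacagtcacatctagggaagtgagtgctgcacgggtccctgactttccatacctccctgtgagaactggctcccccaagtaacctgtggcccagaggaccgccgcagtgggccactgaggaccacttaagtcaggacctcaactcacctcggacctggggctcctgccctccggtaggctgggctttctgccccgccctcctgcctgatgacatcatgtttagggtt
Car5b: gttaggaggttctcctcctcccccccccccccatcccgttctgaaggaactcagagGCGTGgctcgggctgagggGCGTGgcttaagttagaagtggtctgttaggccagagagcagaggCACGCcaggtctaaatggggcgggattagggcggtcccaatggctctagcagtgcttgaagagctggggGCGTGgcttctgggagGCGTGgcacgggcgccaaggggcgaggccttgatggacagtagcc
Car9 held 1 core, ACGTG on the opposite strand, which ended 13 bases before the start. Car12 and Car4 held 0 in this window. Car5b held 5, all GCGTG, 4 on the gene strand and 1 on the opposite strand. Of all 32851 windows of the same length in the table, 38.6% held at least 1 core and 1.01% at least 5. The GC content of the Car5b window was 63.6%, against a median of 52.4%. A match of these letters is a description of the window only, and no match says nothing about the factor.

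The later interval, from day 8 to day 20, was read in the same way. Of 6 members with a value for both arrays, 0 passed 2-fold upward and 0 downward, where 3.58% of 12321 genes were higher and 1.74% lower. From day 2 to day 20, 1 of 3 measured members was at least 2-fold lower (Car5b) and 0 were higher, against 17.0% and 15.5% of 11889 genes, and 3 of 4 members with 1 detected day had bounds at least 2-fold higher, against 29.5% of 1288. Those were Car3, Car9 and Car12, with Car2 under 2-fold. The median of measured members was 0.04, -0.16 and -0.20 for day 8 against day 2, day 20 against day 8 and day 20 against day 2, and that of all measured genes -0.06, -0.05 and -0.14. Each pair of these comparisons shares an array. With spike-in scaling the median over all genes between days 8 and 20 went from -0.05 to 0.61, and the share of higher genes among those past 2-fold from 67.3% to 99.0%. With cyclic loess that share was 83.0%. Day 20 values are therefore relative to the bulk of genes on that array.

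**Figure D2:**
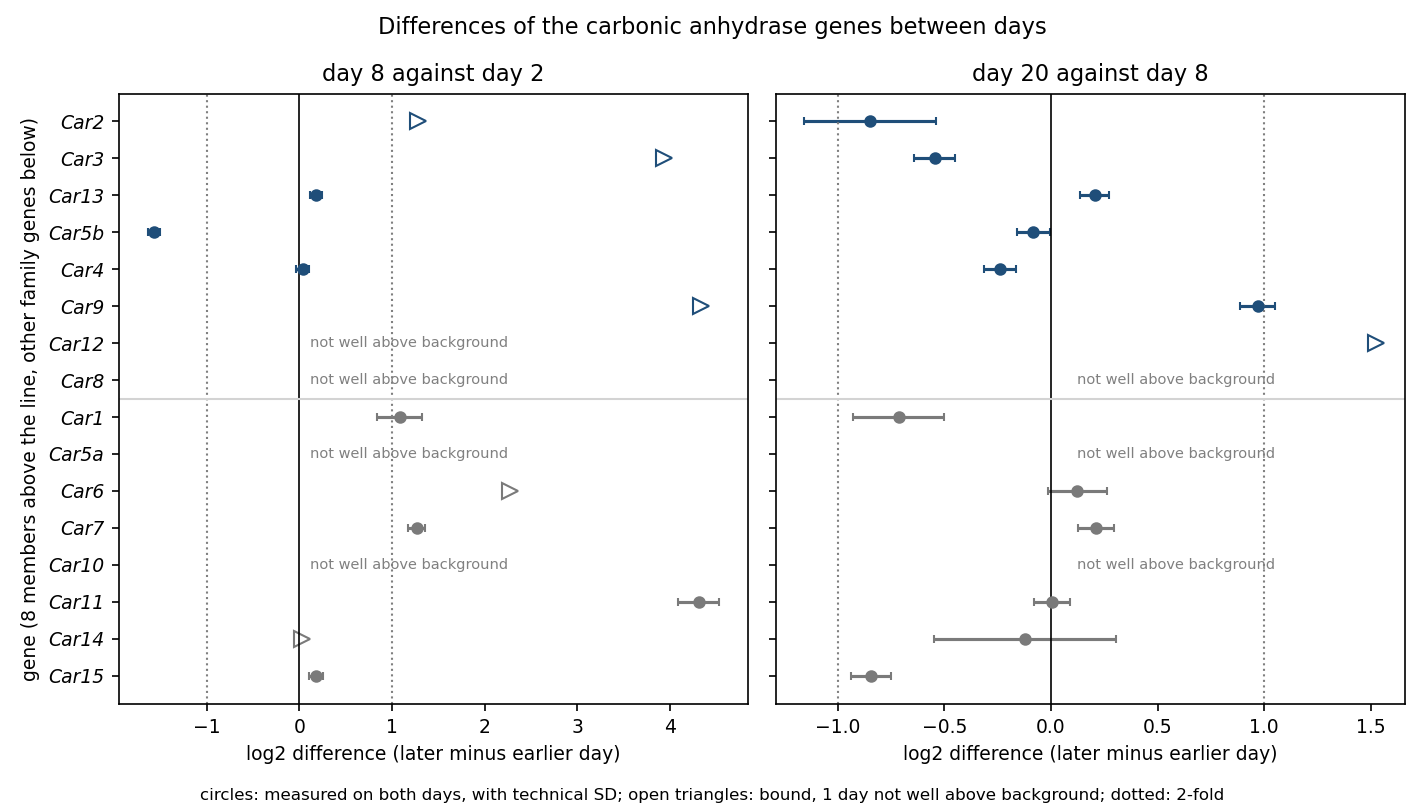
Log2 difference of all 16 carbonic anhydrase genes between successive days (x axis, later minus earlier day; genes on the y axis, the 8 members above the line). Circles with technical SDs were measured on both days, open triangles are bounds, and dotted lines mark 2-fold. On the left Car3, Car9 and Car11 lie near 4 and Car5b at -1.57, and on the right the measured genes lie between -0.85 and 0.97.

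Among the other 8 family genes, 3 of 4 measured on days 2 and 8 passed 2-fold upward by day 8 and 0 downward, against 13.8% and 12.9% of 12045 genes. Of 2 detected on only 1 of these days, 1 had a bound past 2-fold upward, against 25.1% of 1238 genes. Car11, a secreted family protein without enzyme activity, was at -4.88, -0.57 and -0.57 and thus 19.8-fold higher on day 8 (4.31, technical SD 0.222, and 2.77 with normexp), with a day 20 difference of 0.005 from day 8. Car7, a cytosolic isoform known from neurons, was at -2.34, -1.08 and -0.87 and 2.41-fold higher on day 8 (1.27, SD 0.091). Car1 was 2.12-fold higher (1.08, SD 0.243), but 0.43 with normexp. Car6, the secreted isoform of saliva, was undetected on day 2, with a day 8 value at least 4.85-fold higher, a bound of 2.28 on the log2 scale that was 0.79 with normexp. The normexp offset of 50 draws dim values such as those of Car1 and Car6 together.

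Car15, a lipid-anchored isoform, was at -1.38, -1.20 and -2.05, with a difference of -0.84 (SD 0.092) from day 8 to day 20. Car14, a transmembrane isoform, stayed at the detection limit, at -5.81, -5.67 and -5.79. Car10, which like Car8 is without activity, was undetected on each array, as was Car5a. The stricter filter on dim probes leaves dim genes out of the count and does not change their differences. With it, 1 of these 8 genes was counted as higher on day 8, as Car1 and Car11 were left out.

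Genes that work with carbonic anhydrases were taken from lists chosen with earlier results of these data known. For all lists below, the shares of all measured genes past 2-fold were 13.8% higher and 12.9% lower on day 8 against day 2. On day 20 against day 8 they were 3.58% higher and 1.74% lower. Of 14 bicarbonate transporters of the Slc4 and Slc26 families, 5 were measured on days 2 and 8, 2 of them at least 2-fold higher and 0 lower on day 8, with a median of 0.82. The exchanger Slc26a6 was higher by 1.84 (technical SD 0.070) and the sodium-bicarbonate cotransporter Slc4a7 by 1.08 (0.069). With normexp, or with the mean over the probes of a gene, 1 of this list was higher. As a bound, Slc4a5 was at least 2.05-fold lower, a call lost with spike-in scaling, the percentile over detected probes and normexp. Between days 8 and 20, 0 of 5 passed 2-fold.

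Of 13 proton and lactate exporters, 6 were measured on days 2 and 8, with 3 higher and 1 lower (median 1.07). Slc16a3, the lactate exporter of glycolytic cells, was at -5.16, -0.07 and -0.01 over the 3 days and thus higher on day 8 by 5.09 (SD 0.252). Its day 2 signal lay near the detection line, and days 8 and 20 were level. Bsg, basigin, the partner that brings such transporters to the surface, was higher by 2.14 (SD 0.060), and Hvcn1, a proton channel, by 2.16 (SD 0.177). Emb, embigin, the alternative partner, was lower by -2.87 (SD 0.195). By day 20 Hvcn1 was higher again, by 2.17 over day 8 (SD 0.093) and Slc16a7, a further lactate carrier, lower by -1.04 (SD 0.197), the latter a call that 6 of 10 alternative settings did not make. With the stricter filter, which leaves dim genes out of the count, 1 of this list was counted as higher and 0 as lower on day 8.

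A list of 10 genes of bicarbonate-fixing enzymes also holds Hlcs, which attaches biotin to carboxylases and uses no bicarbonate itself. Of 8 measured genes of this list, Hlcs (0.08) included, 6 passed 2-fold upward by day 8 and 0 downward (median 1.32). Acacb and Acaca, the acetyl-CoA carboxylases, were higher by 2.69 (SD 0.071) and 1.40 (SD 0.064). Mccc1 and Pccb, of leucine and propionyl-CoA breakdown, were higher by 2.07 and 2.05, while Pcx, the pyruvate carboxylase of the mitochondrial matrix, was at 0.32. Between days 8 and 20, 0 of 8 passed 2-fold, and the median was -0.08. Of 8 acid and bicarbonate sensors, only Asic1 was detected, with a difference of -0.27 for day 8 against day 2 and of 1.00 for day 20 against day 8, just under 2-fold and past it in 4 of 10 alternative settings.

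On day 8 against day 2, targets of hypoxia signalling were higher together with Car9. Of 18 targets 16 were measured, and 13 of them passed 2-fold upward by day 8 and 0 downward (median 1.87, against -0.06 over all genes), and 1 more, Adm, was at least 30.1-fold higher as a bound. Ankrd37 was higher by 4.50 (SD 0.071), Ndrg1 by 4.43 (SD 0.177), Pdk1, which restrains pyruvate oxidation, by 3.68 (SD 0.068), and Egln3, an oxygen-sensing hydroxylase, by 3.58 (SD 0.066). From day 8 to day 20 the median was 0.15, and 1 of 17 passed 2-fold, Adm at 1.01 (SD 0.079), with Car9 at 0.97 close to it. The 17 values ran from -0.75 to 1.01, on both sides of no difference. In that interval Ankrd37 was at -0.75, Pdk1 at -0.49, Ndrg1 at 0.64 and Egln3 at 0.46. With spike-in scaling 7 of these targets passed 2-fold in that interval, and with normexp 0. Over the 3 days 16, 17 and 17 of the 18 targets were detected, with a summed scaled intensity of 485, 1215 and 921. Whether hypoxia signalling bears on the Car9 and Car12 values was not tested.

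**Figure D3:**
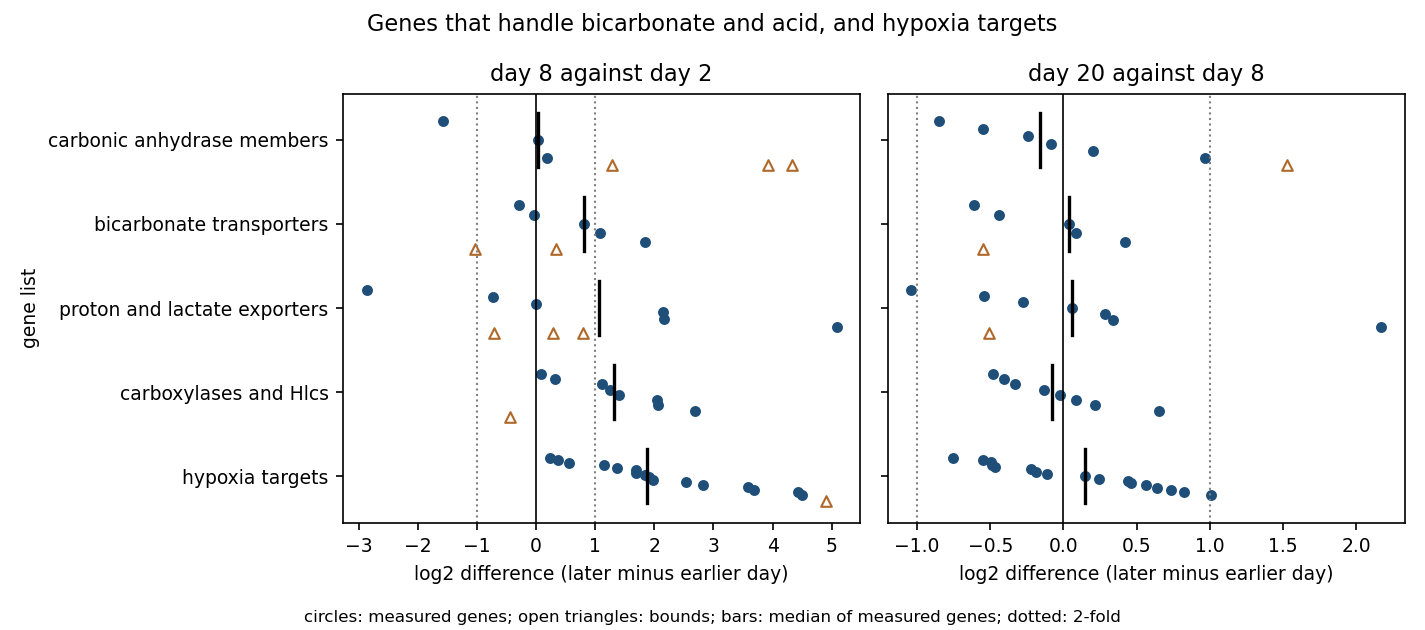
Log2 differences between successive days (x axis, later minus earlier day) for the carbonic anhydrase members and 4 lists of partner genes (y axis). Circles are measured genes, open triangles bounds, black bars medians of measured genes, and dotted lines mark 2-fold. On day 8 against day 2 the hypoxia targets have a median of 1.87 and the carboxylases with Hlcs of 1.32, and on day 20 against day 8 all 4 lists have medians between -0.08 and 0.15.

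The genes most like a member were found for the 3 members detected on all arrays, by the Euclidean distance of both successive log2 differences among 11403 genes detected on all 3 arrays. With 3 arrays many genes share a course, so likeness is only a description. Nearest to Car5b were Abce1, Lsm6 and Heatr1, at distances of 0.011 to 0.026, and 24 genes lay within 0.1. Nearest to Car13 were Mthfd2l, Rbms1 and Maged1, with 137 genes within 0.1, and nearest to Car4 were Mdh2, Gmip and Asnsd1, with 194.

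**Figure D4:**
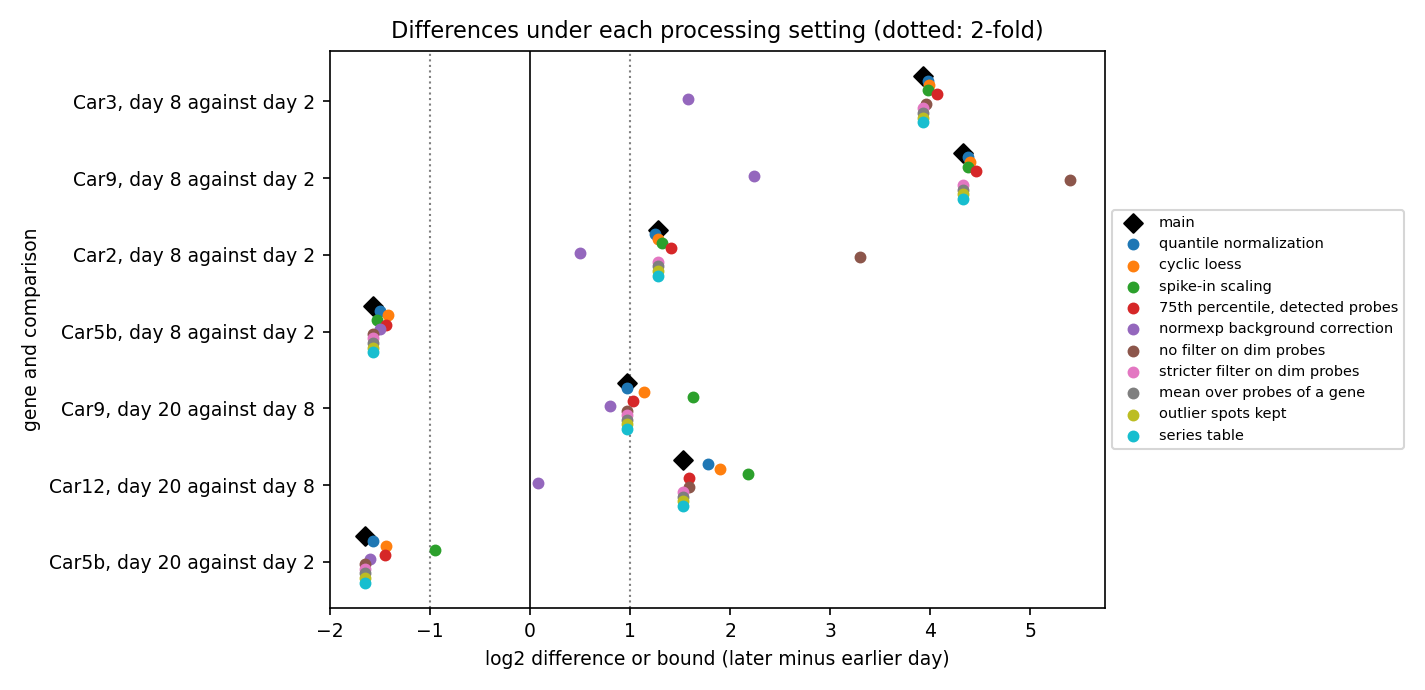
Log2 difference or bound (x axis, later minus earlier day) of 7 member comparisons (y axis) in the reported values (black diamonds) and under 10 alternative processing settings (coloured points), with dotted lines at 2-fold. Car3 and Car9 on day 8 against day 2 stay past 2-fold in every setting shown. Normexp, with its offset of 50, brings Car2 and Car12 under 2-fold, and spike-in scaling brings Car5b on day 20 against day 2 to -0.95.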

How the data were processed

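Total RNA of 3T3-L1 cells at 2, 8 and 20 days was measured on 3 one-colour (Cy3) Agilent arrays, 1 per day. Per the submitters' processing notes, Agilent Feature Extraction 10.7.1.1 made the scanner files; the deposited processed intensity is the spot brightness after background subtraction, per the file headers. The authors' deposited series table holds log2 values that equal the log2 processed intensity plus 1 constant per array (-9.37, -9.31 and -9.86; 100% of probes within 0.01; column medians -4.80, -4.69 and -4.89), and was used as an alternative. Its scale and direction are thus known, while the origin of the constants is not given in the sources used here.

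Outlier spots and control spots were left out, spots of a probe were averaged on the log2 scale, and each array was scaled on its 75th percentile over non-control probes. A gene took its brightest probe. Of 39429 probes, 26581 were named through RefSeq accessions and 12848 were not. Of 43020 non-control spots, between 55.3% and 56.9% were well above background on each array, 0 spots were saturated, and the number of arrays limits the precision. The technical SD came from probes printed 10 times. No test was run. Named genes are the members, the other family genes, and up to 4 genes per partner list, direction and comparison with the largest differences past 2-fold, plus 4 adipocyte genes; marker genes, Asic1, Adm, Hlcs, Pcx and neighbours of members were named after their values were seen. Members and lists were chosen with earlier results of these data known. The 10 alternatives were other scalings (quantile, cyclic loess, spike-in, percentile over detected probes), normexp in limma 3.58.1 (R 4.3.3), no filter or a stricter one on dim probes, the mean over probes, outliers kept, and the series table. Normexp used the median spot signal in place of the mean signal, a column not used here. The fold calculation was tested on simulated data. A further list of marker genes is not reported here.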

Additional observations from a re-analysis of the deposited data

How the results depend on the processing

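With 1 array per day, no replicate could be left out and no p-value exists. No paired analysis was possible because each day had 1 array. The 20 member differences and bounds gave 198 values when recomputed over 10 alternatives. Of these values, 188 kept their side of 2-fold and 4 changed sign, all 4 with spike-in scaling and all given in the report. Between day 8 and day 20, the count of members at least 2-fold higher went from 0 to 1 with cyclic loess, spike-in scaling or the percentile over detected probes (Car9), and to 1 without a filter on dim probes (Car12, 1.59), and the count of bounds went from 1 to 0 with normexp. Between day 2 and day 20 it went from 0 to 1 with spike-in scaling (Car13), where the count lower went from 1 to 0, and to 4 without a filter. Between day 2 and day 8 it was 4 without a filter. Without a filter the undetected values enter as measured, which moves bounds into these counts. Normexp adds an offset of 50 to all spots, which is above the Car12 intensities on all 3 days and draws those values together. The cause of the other shifts was not tested. The share of higher genes among all past 2-fold between days 2 and 20 was 47.7%, and 65.0% with cyclic loess, 84.6% with spike-in scaling and 59.8% with the percentile over detected probes. Between days 8 and 20 it was 34.5% without a filter. Of 684 recomputed list counts, 44 moved, which means by over 1.5 times or to or from 0. Spike-in scaling rests on 7 probes. Car2, Car12 and Car8, and Car3 on day 2, lie near or under the detection line, where signal over background limits the values.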

Other observations

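Genes next to the carbonic anhydrase genes in the mouse gene table (assembly GRCm38.p6) were read on the same arrays. Dbp, a circadian transcription factor gene beside Car11, was higher on day 8 than on day 2 by 4.74 on the log2 scale (technical SD 0.066), where Car11 was higher by 4.31. Ntn5, the other neighbour of Car11, was undetected on all days. Siah1b, a ubiquitin ligase gene beside Car5b, was lower by -1.92 (SD 0.072), where Car5b was at -1.57. Nae1 beside Car7 went the other way, at -0.71 (SD 0.068), where Car7 was at 1.27.

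The neighbours of Car9 differed from it in direction on day 8. Arhgef39 was lower by -5.09 (SD 0.206) and Tpm2, a tropomyosin gene, by -1.77 (SD 0.073), while Car9 was at least 20.1-fold higher. From day 8 to day 20 all 3 had positive values, 0.80 for Arhgef39, 0.78 for Tpm2 and 0.97 for Car9. Beside Car12, which was undetected on days 2 and 8, Aph1b was higher on day 8 by 2.10 (SD 0.086) and Usp3 by 1.03 (SD 0.067).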
